A study of Mus musculus with 8 samples.

Results

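The extracellular matrix genes described here are 44 named genes, of 18350 genes with a named probe on the array. They comprise 9 chains of fibrillar collagens, 4 of basement membrane collagens and 4 of other collagens, 9 laminin and nidogen genes, 4 glycoproteins, 6 genes of the hyaluronan matrix and 8 proteases or protease inhibitors. They were chosen by name, with earlier results of these data known. A probe was matched for 43 of them, and none was matched for Lamc1, the laminin γ1 chain. Of these, 39 were tested, because a probe was well above background in both replicates of some group, and 31 of the 39 were well above background on all 8 arrays. Col1a1, Col6a1, Lama2 and Hapln1 had probes that did not pass this filter. Hapln1, the link protein that ties proteoglycans to hyaluronan, was well above background on none of the 8 arrays, and Col1a1, Col6a1 and Lama2 were so on no WT array and on 1 array of each other group.

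The extracellular matrix is the secreted mesh that surrounds cells. Collagen IV and laminin sheets, bridged by nidogens, form basement membranes, which neural stem cells contact in their niche, while most of the matrix between brain cells is hyaluronan with bound proteoglycans of the lectican family such as versican, brevican and neurocan. Metalloproteases of the MMP and ADAMTS families cut these components, and TIMPs inhibit the proteases.

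RNA was measured on 1-colour arrays in secondary neurospheres, floating clusters regrown from dissociated primary neurospheres of the hippocampus of mice aged 7 to 9 weeks. WT and Sirt1 KO cells came from 129/ICR mice and were cultured for 6 days, with replicate 1 female and replicate 2 male. DMSO and resveratrol cells came from male wild-type C57BL/6 mice and were cultured for 5 days and then exposed for 24 hours to the solvent DMSO or to resveratrol, labelled as a dose of 10 with the unit written "mm". Each group had 2 arrays, and all secondary cultures grew with EGF, bFGF and heparin. SIRT1 removes acetyl groups from proteins at the cost of NAD, and the polyphenol resveratrol is used to activate it. The labels do not say which part of Sirt1 was removed, in which cells, or whether replicates were separate animals, so the p-values reflect the spread among these arrays, which may be technical.

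Values are log2 signals relative to the 75th percentile of the array, so 0 is that percentile and each unit is a doubling. The 75th percentile itself was 257 to 388 on replicate 2 arrays and 740 to 910 on replicate 1 arrays. Precision is limited by having 2 arrays in each group. The Sirt1 probe used read 0.12 and 0.13 in WT and 0.36 and -0.12 in Sirt1 KO (replicates 1 and 2), and its second probe read -1.38 and -1.04 against -1.08 and -1.97. Neither separated the groups. Where the probes lie relative to the deletion is not known here, so they do not check the labels, and all directions are for the arrays as labelled. All 12 neural stem and progenitor markers, Nes and Sox2 among them, were well above background on all 8 arrays. The endothelial markers Pecam1, Cdh5, Tek, Cldn5 and Tie1, the pericyte marker Rgs5 and the fibroblast markers Lum and Dpt were so on none, as were 5 of 6 microglia markers with a probe. Other markers of these lists were so on all 8 arrays. These were Flt1 and Vwf (endothelial), Cspg4, Acta2, Tagln and Anpep (pericyte and smooth muscle), Pdgfra, Foxc1 and Igfbp2 (fibroblast) and Csf1r (microglia).

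Resveratrol was compared with DMSO to ask which genes respond to the compound in 24 hours. Most matrix genes read higher after resveratrol, led by Col18a1, the basement membrane collagen whose C-terminal fragment is endostatin. Proteases and inhibitors (Mmp2, Timp1, Adamts4, Adamts1) and basement membrane genes (Nid1, Lama5, Lamb2) followed, and Timp3 and the hyaluronan synthase Has2 read lower. The median over the 39 genes was 0.27, against 0.01 over all 13332 genes tested. In both same-numbered pairs of arrays 23 of 39 read higher (59.0%), where 36.7% of all genes did, and 8 read lower (20.5%), where 32.2% of all genes did. Both arrays of resveratrol lay above both of DMSO for 8 of 39 genes, with 10.3% for all genes, and below for 1, with 8.72% for all genes. With a mean difference of at least 0.5 besides, 9 were higher in both pairs (6.58% of all genes) and 3 lower (3.11% of all genes).

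None of the 39 passed the test of group means (limma, Benjamini-Hochberg over 13332 genes, adjusted p threshold 0.05), and neither did any other gene (0.0% of all genes in each direction). At an unadjusted p under 0.05 there were 2 of 39, Col18a1 and Adamts1, with 1.51% for all genes. The replicate number marks the slide in these groups, and replicates of 1 number deviated together. With the number as a block, 1 of 39 passed, Col18a1, where 0.45% of all genes passed as higher and 0.0525% as lower. At an unadjusted p under 0.05 the blocked fit held 13 of 39, with 14.2% for all genes.

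Col18a1 read -0.66 and -0.80 in DMSO and 0.71 and 2.26 in resveratrol. The groups did not overlap, and the second resveratrol array stood well above the first. The difference was 2.22 (SE 0.48, 95% confidence interval 1.08 to 3.35, n = 2 arrays per group, 4.64-fold), or 1.37 in the replicate 1 pair and 3.06 in the replicate 2 pair. Its limma adjusted p was 0.9999, and 0.0490 with the block. Its other kept probe differed by 2.25, with 1.45 and 3.04 in the pairs. The 4 arrays of WT and Sirt1 KO lay between -0.35 and 0.15. The call needs the replicate block: with slide as a block the adjusted p was 0.923.

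Col18a1 has 2 start sites in the RefSeq table (build GRCm38.p6, minus strand), and which of them the probes read is not known here. Both windows are shown, 250 bases before and 50 after each start, because Col18a1 was the 1 matrix gene that passed with the block. Capitals mark the GC box GGGCGG on either strand, a motif bound by Sp1-family factors. The window at chr10:77166481-77166780 holds 3 and that at chr10:77113656-77113955 holds 0.
Col18a1 window 1: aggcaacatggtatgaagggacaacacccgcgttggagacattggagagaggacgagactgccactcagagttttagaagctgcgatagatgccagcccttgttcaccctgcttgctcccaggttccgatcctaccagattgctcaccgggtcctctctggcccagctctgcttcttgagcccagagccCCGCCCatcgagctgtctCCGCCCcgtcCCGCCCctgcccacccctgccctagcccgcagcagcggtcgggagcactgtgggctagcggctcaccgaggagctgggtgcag
Col18a1 window 2: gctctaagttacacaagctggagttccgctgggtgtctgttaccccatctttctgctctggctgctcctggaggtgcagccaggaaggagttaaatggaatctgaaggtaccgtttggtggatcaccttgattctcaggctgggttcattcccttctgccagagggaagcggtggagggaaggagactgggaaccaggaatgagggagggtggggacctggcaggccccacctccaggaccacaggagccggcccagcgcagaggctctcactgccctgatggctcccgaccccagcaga
Neither window holds the AP-1 motif TGANTCA (7.81% of the 32851 windows in the table do) or the antioxidant response element core TGACNNNGC (12.4% of all windows), searched on both strands. Windows were found for 32 of the 44 genes, 35 windows in all, and 29 of the 35 hold GGGCGG (82.9%), against 35.7% of all windows in the table. AP-1 motifs were in 1 of the 35, that of Col6a1. These are matches of letters, given as a description.

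Among the proteases, Mmp2, a gelatinase that also cuts basement membrane collagen, read -1.72 and -2.77 in DMSO and -0.75 and -1.41 in resveratrol. The groups did not overlap. The difference was 1.16 (SE 0.53, 2.24-fold), and the adjusted p was 0.9999, or 0.218 with the replicate block. Adamts4, a protease of lecticans, read -1.66 and -2.37 against -1.13 and -1.41, a difference of 0.74 (SE 0.38). Adamts1, of the same family, read 0.36 and 0.35 against 0.81 and 1.21, a difference of 0.66 (SE 0.23). For each of these, both resveratrol arrays were above both DMSO arrays. Mmp14 and Mmp15, which are membrane-anchored, differed by 0.16 and -0.14 with opposite signs in the pairs.

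The inhibitors split. Timp1, which inhibits most MMPs, read 0.93 and 1.51 in DMSO and 1.65 and 2.87 in resveratrol, a difference of 1.04 (SE 0.67) without overlap, and its second probe gave 0.95. Timp3, the inhibitor that stays bound to the matrix and also acts on ADAMTS proteases, read 3.52 and 2.72 against 2.96 and 2.27, a difference of -0.51 (SE 0.41). It was lower in both pairs, by similar amounts (-0.56 and -0.45), although the groups overlapped because replicate 1 was high in each. Timp2 differed by 0.19, nearly all of it in the replicate 2 pair. Of the 8 proteases and inhibitors, 5 were higher in both pairs (36.7% of all genes) and 1 lower (32.2% of all genes), with a median of 0.42. The 5 include Timp2, whose replicate 1 difference was 0.0 when rounded.

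All 5 tested genes of the hyaluronan matrix read lower in both pairs after resveratrol, with a median of -0.21, where 32.2% of all genes were lower in both. The sizes were small beside the spread between arrays. Has2, which makes high-mass hyaluronan, read -0.55 and -2.55 in DMSO and -0.93 and -3.46 in resveratrol, a difference of -0.65 (SE 1.40). Without DMSO replicate 1 it turned to 0.35, and without resveratrol replicate 2 to 0.62, since arrays of unlike number are then compared. Itih3, a heavy chain that is linked to hyaluronan and stabilises it, differed by -0.31, the lecticans Vcan, Ncan and Bcan by -0.21, -0.20 and -0.06. The second Vcan probe differed by 0.02, the other way.

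Among the basement membrane genes, 6 of 7 laminins and nidogens and 3 of 4 collagens read higher in both pairs. The remaining collagen, Col4a5, read -0.18 and 0.42 in the pairs. Nid1, which bridges laminin and collagen IV, read -0.87 and -2.37 in DMSO and -0.48 and -1.60 in resveratrol, a difference of 0.58 (SE 0.66) that turned to -0.17 without DMSO replicate 2. Lama5, a laminin α chain, read 1.18 and 0.22 against 1.62 and 0.94, a difference of 0.58 (SE 0.52). Lamb2, a laminin β chain, read 0.04 and -0.65 against 0.55 and -0.05, a difference of 0.56 (SE 0.39). In each of these the 2 groups overlapped, because the replicate 1 array of DMSO was above the replicate 2 array of resveratrol. The median over the 7 laminin and nidogen genes was 0.37. The one not higher in both pairs was Lamc3, which was not well above background on either resveratrol array: it was at least 1.11-fold lower there than in DMSO, taking the dim group at the lowest signal called well above background. That bound is used wherever a group was dim. Lamc3 was well above background on both arrays of DMSO alone, so it entered the test only through that group.

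The collagen IV chains Col4a1 and Col4a2 wind together in 1 molecule, and their genes lie head to head on chromosome 8. Col4a1 read 0.88 and -0.09 in DMSO and 1.34 and 0.12 in resveratrol, and Col4a2 read -1.12 and -2.04 against -0.56 and -1.90. Both pairs were higher for both genes, by 0.33 (SE 0.62) and 0.35 (SE 0.57) on average. In Sirt1 KO against WT both were again higher in both pairs, by 0.52 and 0.29. The second kept Col4a2 probe differed less. It gave 0.11 after resveratrol, with 0.23 and -0.015 in the pairs, and 0.17 in Sirt1 KO, with 0.23 and 0.10. Their promoter windows overlap on opposite strands, with start sites 21 bases apart. They are shown because the genes, by the probes used, read higher together in both comparisons. Capitals mark the 78 bases they share, chr8:11312777-11312854 (RefSeq, GRCm38.p6), so that the capitals of one are the reverse complement of the other. The full windows are chr8:11312777-11313076 on the minus strand for Col4a1 and chr8:11312555-11312854 on the plus strand for Col4a2.
Col4a1: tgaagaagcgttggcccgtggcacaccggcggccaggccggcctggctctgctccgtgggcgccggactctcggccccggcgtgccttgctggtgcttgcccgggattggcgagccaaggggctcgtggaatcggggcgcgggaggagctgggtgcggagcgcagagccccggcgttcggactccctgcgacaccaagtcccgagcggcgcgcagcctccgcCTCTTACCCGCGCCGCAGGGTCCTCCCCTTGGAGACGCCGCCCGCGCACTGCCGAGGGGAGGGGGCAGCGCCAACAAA
Col4a2: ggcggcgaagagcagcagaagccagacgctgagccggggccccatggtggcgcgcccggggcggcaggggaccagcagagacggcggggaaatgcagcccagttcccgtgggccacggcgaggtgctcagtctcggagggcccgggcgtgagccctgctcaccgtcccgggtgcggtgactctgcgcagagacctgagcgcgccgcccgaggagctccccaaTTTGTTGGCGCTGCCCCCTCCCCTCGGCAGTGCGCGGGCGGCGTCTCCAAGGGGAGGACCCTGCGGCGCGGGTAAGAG
Each window holds 1 CCAAT box (the letters CCAAT on either strand), as 37.4% of all windows hold at least one.

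Fibrillar collagens lay closer to 0 after resveratrol. Their 8 tested genes ran from -0.57 to 0.32 with a median of 0.16, and 4 were higher and 1 lower in both pairs. The lower one was Col27a1, which read -2.64 and -4.51 in DMSO and -3.39 and -4.89 in resveratrol (difference -0.57, SE 1.32), and it turned to 0.37 and 0.18 without DMSO replicate 1 and without resveratrol replicate 2. It was well above background on both arrays of DMSO and on 1 array of each other group, so it entered the test only through DMSO. Col11a2 differed least, by -0.02. Among glycoproteins, Tnc, a tenascin of stem cell niches, read 1.001 and 1.28 against 1.59 and 1.70, a difference of 0.50 (SE 0.37) without overlap, and Sparc, which binds collagen, differed by 0.46 (SE 0.47), also without overlap. Fn1 differed by 0.23 and Sparcl1 by 0.34. Some marker sums, in multiples of the 75th percentile, went with this comparison. That of fibroblasts and meninges was 57.8 and 68.4 in DMSO and 69.3 and 87.3 in resveratrol. It was mostly Igfbp2 (log2 signal 5.73 and 6.02 against 6.05 and 6.402), while Pdgfra, also on that list, read 1.96 and 1.39 against 0.95 and 0.11, and Lum and Dpt were above background on no array. The sum of oligodendrocyte precursor markers was 186 and 212 against 158 and 159, and that of mature oligodendrocyte markers 9.61 and 8.02 against 7.29 and 5.804. Their part in the matrix differences was not tested. The other collagens Col9a3, Col16a1 and Col6a2 differed by 0.30, 0.24 and -0.08.

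**Figure D1:**
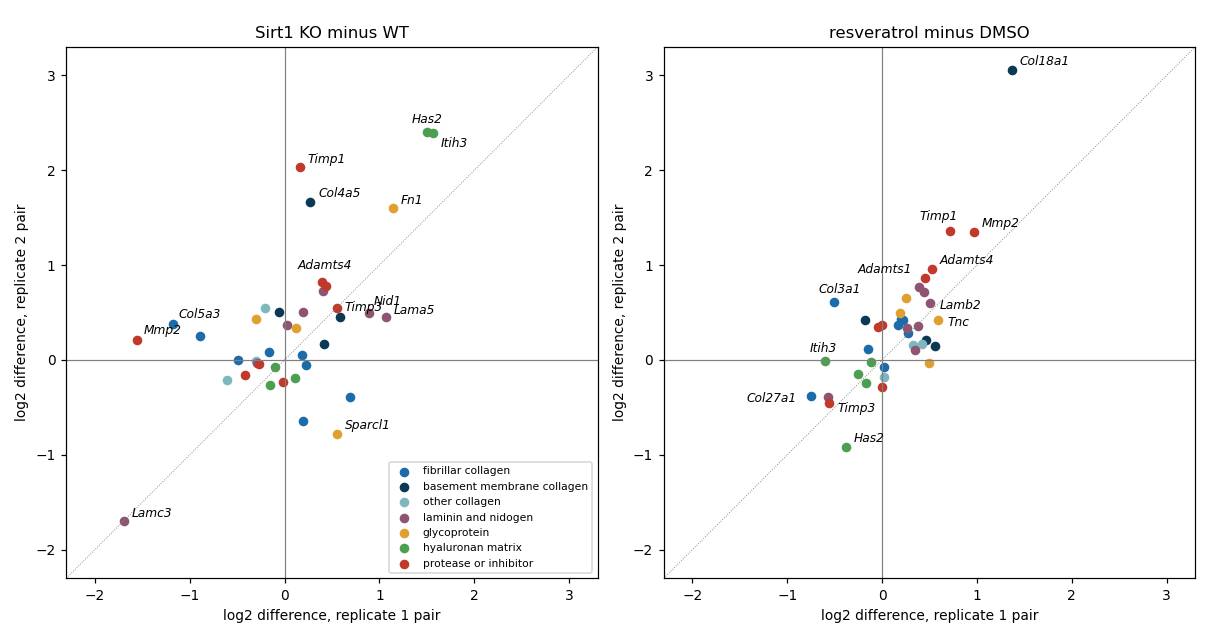
Log2 difference of each of the 39 tested matrix genes in the replicate 1 pair (horizontal axis) and the replicate 2 pair (vertical axis), for Sirt1 KO minus WT (left) and resveratrol minus DMSO (right), coloured by class, with a dotted line of equality. On the right 23 points are positive in both pairs and Col18a1 stands apart at 1.37 and 3.06, while on the left 17 are so and Mmp2, at -1.55 and 0.21, is among the 13 genes whose pairs disagree, and Lamc3, at the lower left, was not well above background in Sirt1 KO.

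The comparison of Sirt1 KO and WT addresses the loss of SIRT1. The genes that read highest in Sirt1 KO relative to WT were both of the hyaluronan matrix, Itih3 and Has2, followed by fibronectin (Fn1), Timp1 and a collagen IV chain (Col4a5). Basement membrane genes were again mostly higher, and fibrillar collagens showed no common direction. Lamc3 was not well above background on either Sirt1 KO array, so it has only a bound and no place in an order by size. The median over the 39 was 0.12, against -0.04 over all genes. In both pairs 17 of 39 read higher (43.6%), where 22.2% of all genes did, and 9 lower (23.1%), where 34.1% of all genes did. The groups did not overlap for 5 genes that were higher, with 7.16% for all genes, and 2 that were lower, with 7.88%. With a mean difference of at least 0.5 besides, 12 were higher in both pairs (5.47% of all genes) and 1 lower (4.46% of all genes).

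No matrix gene passed limma's test with group means, nor did any other gene (0.0% of all genes in each direction), and at an unadjusted p under 0.05 there were 2 of 39, with 1.19% for all genes. These were Itih3 and Lamc3, and the p of Lamc3 rests on a signal in Sirt1 KO that was not measured above background. With the replicate number as a block, which in these groups goes with sex and scan day, 0 of 39 passed, where 0.173% of all genes passed as higher and 0.045% as lower. The smallest adjusted p among matrix genes in that fit were those of Has2 and Itih3, both 0.0505. At an unadjusted p under 0.05 the blocked fit held 15 of 39, with 13.9% for all genes. WT 1 and Sirt1 KO 1 lay on different slides, and WT 2 and Sirt1 KO 2 together on slide 3, which was scanned on another day.

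Itih3 read -3.82 and -4.73 in WT and -2.26 and -2.34 in Sirt1 KO. Both Sirt1 KO arrays were above both WT arrays, and the probe was well above background on 1 of the 2 WT arrays. The difference was 1.98 (SE 0.62, 95% confidence interval 0.49 to 3.46, 3.93-fold), with an adjusted p of 0.9999. Has2 read -2.74 and -5.91 in WT and -1.24 and -3.50 in Sirt1 KO, 1.50 and 2.41 higher in the pairs, but with a difference of 1.95 (SE 1.40) whose interval of -1.37 to 5.28 includes 0. It too was well above background on 1 of the 2 WT arrays. WT replicate 2 was the lowest array for each gene. The DMSO arrays, wild type as well, read -1.59 and -3.15 for Itih3 and -0.55 and -2.55 for Has2. They were above both WT arrays of each gene, those of the 129/ICR strain. For the lecticans Vcan, Ncan and Bcan the differences were -0.21, -0.04 and -0.09.

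Background correction decided the direction of 7 genes named here. With the normexp method on median signals and local background, Itih3 turned to -0.31, Has2 to -0.22, Fn1 to -0.30, Col4a5 to -0.83, Nid1 to -0.18, Nid2 to -0.10 and Adamts4 to -0.01. In that fit the 2 WT arrays had estimated background means of -269 and -100, where the other 6 lay between -5.31 and 1.32, and they held 13 and 10 spots with a local background above 100, where the others held at most 1. With 1 background per array, added after seeing the data, these 7 genes kept the direction given here, but Itih3 read 0.74, Has2 0.65, Fn1 0.49 and Col4a5 0.21, and Lamc3 -0.43.

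Fn1, fibronectin, read -2.37 and -5.05 in WT and -1.23 and -3.44 in Sirt1 KO, a difference of 1.37 (SE 1.38), and its second kept probe differed by -0.64, the other way. The first was well above background on both arrays of Sirt1 KO alone, and on 1 array of each other group, so it entered the test only through the group where it was higher. Timp1 read -0.30 and -0.22 against -0.13 and 1.82. Its difference of 1.10 (SE 0.67) lay almost wholly in the replicate 2 pair (2.03, against 0.16), although the groups did not overlap. The second Timp1 probe differed by 0.405, with 0.27 and 0.54 in the pairs, and its groups overlapped. Col4a5, a collagen IV chain, read -3.85 and -5.54 against -3.57 and -3.87, a difference of 0.97 (SE 0.61) that likewise came mainly from replicate 2. Timp1 and Col4a5 thus rest more on the pair of slide 3 than on the other pair.

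Lama5 read -0.84 and 0.36 in WT and 0.23 and 0.81 in Sirt1 KO, a difference of 0.76 (SE 0.52). Nid1 read -2.24 and -2.93 against -1.35 and -2.44, a difference of 0.69 (SE 0.66), and Nid2 read -1.10 and -2.32 against -0.70 and -1.59, a difference of 0.56 (SE 0.67) that turned to -0.04 without WT replicate 2. These basement membrane genes were higher in both pairs with overlapping groups. Lamc3 read -4.99 and -4.88 in WT and -6.68 and -6.57 in Sirt1 KO, where it was not well above background on either array. Taking the bound for a dim group, Lamc3 was 1.16-fold lower in Sirt1 KO. Only 1 of the 2 WT arrays was well above background, so this is not a firm minimum. Of the 7 laminin and nidogen genes, 5 were higher and 2 lower in both pairs (median 0.35), and Lama4 differed least, by -0.16.

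Timp3 read 3.92 and 3.40 in WT and 4.47 and 3.95 in Sirt1 KO, with 0.55 in each pair and no overlap (SE 0.41, adjusted p = 0.9999, or 0.0830 with the replicate block). Mmp14, which activates the Mmp2 protein, read 2.81 and 2.65 against 3.25 and 3.44, a difference of 0.61 (SE 0.38). Adamts4 read -0.98 and -1.77 against -0.59 and -0.94, a difference of 0.61 (SE 0.38). For each of Timp3, Mmp14 and Adamts4, both Sirt1 KO arrays were above both WT arrays. The second kept Mmp14 probe differed by 0.49, with 0.098 and 0.89 in the pairs, and its groups overlapped. Mmp2 went apart in the pairs, -1.55 and 0.21, and Sparcl1 did so with 0.55 and -0.78. The 8 fibrillar collagens ran from -0.40 to 0.15, and 7 of them had opposite signs in the pairs, where 43.4% of all genes did.

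Markers of other cell types also differed in this comparison. The summed level of astrocyte markers, in multiples of the 75th percentile, was 83.3 and 136 in WT and 145 and 245 in Sirt1 KO, and 7 of the 9 were higher in both pairs, with a median of 0.94. In DMSO and resveratrol the sum ran from 171 to 201. Endothelial markers, low throughout, summed to 0.43 on each WT array and to 1.18 and 0.61 in Sirt1 KO, with 5 of 8 on no array. The rise was mostly Flt1 (log2 signal -2.79 and -3.54 in WT, -0.32 and -1.91 in Sirt1 KO), while Kdr and Vwf rose less. Mature oligodendrocyte markers summed to 5.85 and 7.00 in WT and to 9.38 and 8.91 in Sirt1 KO, with 3 of 5 tested markers higher in both pairs. The part of these markers in the matrix differences was not tested, and in these bulk samples fewer cells of a type and less RNA per cell cannot be told apart.

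**Figure D2:**
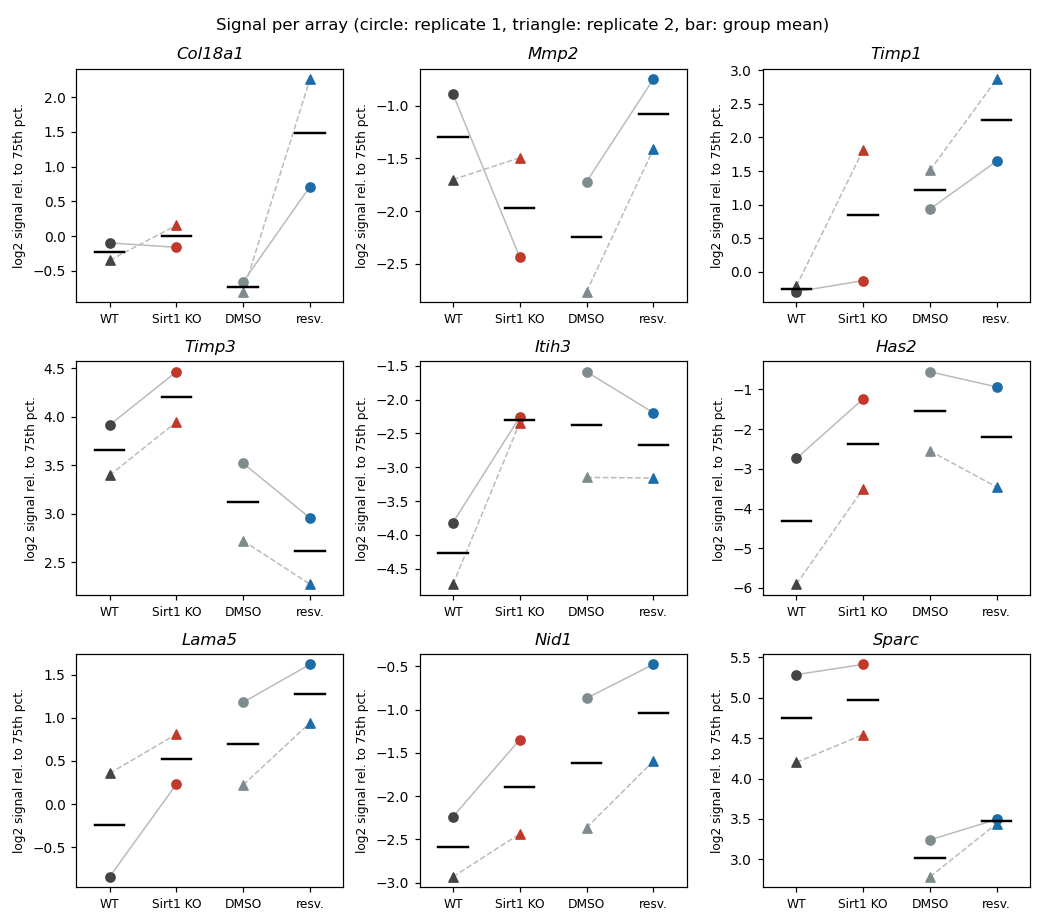
Log2 signal relative to the 75th percentile of the array for 9 matrix genes in each group (vertical axis), with circles for replicate 1, triangles for replicate 2, lines joining same-numbered arrays and bars for group means. Timp3 is 0.55 higher in Sirt1 KO than in WT in both pairs and lower in resveratrol than in DMSO in both pairs. Lama5, Nid1, Timp1 and Sparc are higher in all 4 pairs.

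The 2 comparisons share no arrays, and the difference between them was tested directly. It is Sirt1 KO minus WT less resveratrol minus DMSO, so it covers both opposite signs and unequal sizes of 1 sign. Of the 39 genes, 0 passed limma's test with group means (0.0% of all genes in each direction), and 4 had an unadjusted p under 0.05 (Col18a1, Mmp2, Adamts1 and Itih3), with 0.938% for all genes. With the replicate block 1 of 39 passed, Timp3, where 0.12% of all genes passed as higher and 0.173% as lower, and 9 of 39 had an unadjusted p under 0.05 in that fit, with 12.4% for all genes. Timp3 was 0.55 higher in Sirt1 KO and 0.51 lower in resveratrol, a difference of 1.06 (SE 0.58) with an adjusted p of 1.0, or 0.0405 with the block and 0.634 with slide as a block. Its 4 pairs carry these signs without exception.

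The promoter window of Timp3 (chr10:86300162-86300461, plus strand, RefSeq, GRCm38.p6) is shown because Timp3 was the 1 matrix gene that passed this test with the replicate block. It holds 2 GC boxes, in capitals, and none of TGANTCA, TGACNNNGC or CCAAT.
Timp3: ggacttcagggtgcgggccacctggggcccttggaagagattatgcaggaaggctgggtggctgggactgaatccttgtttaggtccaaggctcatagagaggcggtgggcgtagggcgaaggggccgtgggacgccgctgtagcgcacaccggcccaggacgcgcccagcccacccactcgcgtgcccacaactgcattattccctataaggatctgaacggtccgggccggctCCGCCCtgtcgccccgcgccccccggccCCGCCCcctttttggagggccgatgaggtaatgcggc

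Has2 and Itih3 also read higher in Sirt1 KO and lower in resveratrol, with differences of 2.60 (SE 1.98, adjusted p = 0.0549 with the block) and 2.28 (SE 0.88, adjusted p = 0.0843 with the block). With normexp on local background these were 0.011 for Has2 and -0.13 for Itih3, and with 1 background per array 0.86 and 0.89. Col18a1, Mmp2 and Adamts1 differed the other way, by -1.99 (SE 0.67), -1.83 (SE 0.75) and -0.78 (SE 0.32). Their values in Sirt1 KO minus WT were 0.22, -0.67 and -0.13, and those in resveratrol minus DMSO 2.22, 1.16 and 0.66. Col4a1, Col4a2, Lamb1, Lamb2 and Sparc were higher in both pairs of both comparisons. So were Timp1, Lama5, Nid1, Nid2 and Adamts4, whose differences between the comparisons ran from -0.13 to 0.20. With the block the smallest of their adjusted p-values was 0.763. That does not show that the responses are alike: for Timp1 the 95% interval of the difference was -2.20 to 2.32.

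WT was set against DMSO, the control cultures of the 2 arms, to describe the starting state of the matrix genes. These groups share arrays with both comparisons above, and they differ in strain, in DMSO over the last 24 hours, for replicate 1 in sex, and for replicate 2 in slide and scan day. These cannot be told apart. Relative to DMSO, WT read highest in Sparc, followed by Col6a2, Lama4 and Mmp2, and lowest in Has2, Itih3 and Timp1. The median over the 39 was 0.29, against 0.03 over all genes. In both same-numbered arrays 20 of 39 were higher, with 33.7% for all genes, and 7 lower, with 27.1% for all genes, among them 14 higher by at least 0.5 (10.5% of all genes) and 5 lower by as much (9.5% of all genes). The groups did not overlap for 11 that were higher, with 13.8% for all genes, and 3 that were lower, with 12.4% for all genes.

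Of the 39 genes, 0 passed limma's test, where 0.045% of all genes passed as higher and 0.03% as lower, and 2 of 39, Sparc and Itih3, had an unadjusted p under 0.05, with 5.63% for all genes. Sparc read 5.28 and 4.20 in WT, 5.41 and 4.54 in Sirt1 KO, 3.24 and 2.79 in DMSO and 3.50 and 3.44 in resveratrol. All 4 arrays of 129/ICR cells were above all 4 of C57BL/6 cells. WT was above DMSO by 1.73 (SE 0.47, 95% confidence interval 0.62 to 2.84, 3.31-fold, adjusted p = 0.447), and by 2.81 in the second probe. With slide as a block it was the 1 matrix gene to pass (2.15, adjusted p = 0.0249). The share of all genes that passed in that fit is not given here, so this count is not set against it.

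Col6a2, a chain of the beaded-filament collagen VI, read -4.20 and -2.76 in WT and -4.42 and -5.10 in DMSO, a difference of 1.28 (SE 0.79). Lama4 read 2.09 and 0.56 against 0.75 and -0.07, a difference of 0.98 (SE 0.68), and its other kept probes gave 0.97 and 0.93. Mmp2 read -0.89 and -1.70 in WT, a difference of 0.95 (SE 0.53) from DMSO. The groups overlapped for Lama4 and not for Col6a2 or Mmp2, and each was above DMSO in both numbers. For Col6a2 the difference lay almost wholly in replicate 2 (2.34, against 0.22 in replicate 1). Col6a2 was well above background on both arrays of WT and Sirt1 KO, and on 1 array each of DMSO and resveratrol. It thus entered the test only through WT, where it was higher than in DMSO, and Sirt1 KO.

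On the lower side, Has2 differed by -2.77 (SE 1.40), Itih3 by -1.91 (SE 0.62, adjusted p = 0.602) and Timp1 by -1.48 (SE 0.67), each without overlap. With normexp on local background Has2 read -0.17, Itih3 turned to 0.27 and Timp1 read -1.35, and with 1 background per array they read -1.03, -0.78 and -1.35. Both Timp1 probes were lower in WT. Col27a1 read -3.45 and -5.83 in WT, a difference of -1.07 (SE 1.32), which turned to 0.13 without WT replicate 2, to 0.04 with slide as a block and to 0.91 with local background. As above, Col27a1 entered the test only through DMSO, where it was higher. Nid1 differed by -0.97 (SE 0.66) and Lama5 by -0.94 (SE 0.52), and Lama5 was lower in replicate 1 only (-2.02, against 0.14). Has2, Itih3, Timp1, Nid1 and Lama5 thus had lower means in WT than in both DMSO and Sirt1 KO. Astrocyte markers summed to 83.3 and 136 in WT and to 200 and 171 in DMSO, and those of mature oligodendrocytes to 5.85 and 7.00 against 9.61 and 8.02. Their part was not tested.

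**Figure D3:**
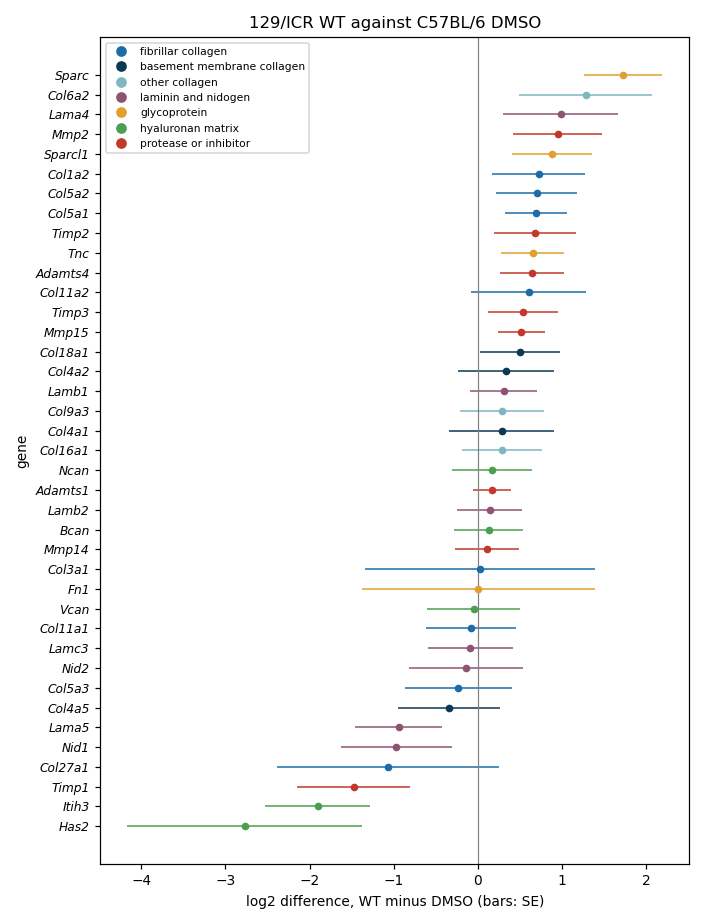
Log2 difference between WT and DMSO (horizontal axis) for the 39 tested matrix genes, ordered by size and coloured by class, with bars for the standard error (2 arrays per group). Sparc, at 1.73, and Has2, at -2.77, mark the ends, and the median is 0.29.

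Matrix genes also differed between the replicates of each group, and more of them read higher in replicate 1 than genes at large. In all 4 groups 21 of 39 were higher in replicate 1 (53.9%), where 21.0% of all genes were, and 7 were lower (18.0%), where 44.8% of all genes were. The median difference, replicate 1 minus replicate 2, was 0.68 in WT, 0.36 in Sirt1 KO, 0.69 in DMSO and 0.65 in resveratrol, against -0.26, -0.28, -0.17 and -0.24 over all genes. Among the 21 were Col4a1 and Col4a2, the collagen V chains Col5a1, Col5a2 and Col5a3, the laminins Lama4, Lamb1 and Lamb2, both nidogens, Fn1, Sparc, Has2 and Itih3. Col3a1, Col11a2, Lamc3, Bcan, Timp1, Timp2 and Mmp15 were the 7 that were lower. Replicate number goes with signal strength in every group, with slide in the treatment arm, and in the genotype arm with sex, slide and scan day, since both replicate 2 arrays there lay on slide 3, scanned on another day. Their part was not tested.

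Fn1 showed the pattern most plainly among glycoproteins, by the probe used. That probe was well above background on 1 of 2 arrays in WT, DMSO and resveratrol, so its gaps there include dim values. The second kept probe read -4.61 and -2.96 in WT, the other way, and was higher in replicate 1 in the other groups. On the probe used, replicate 1 was above replicate 2 by 2.68 in WT, 2.22 in Sirt1 KO, 2.23 in DMSO and 2.75 in resveratrol. Each was more than the difference of this gene in any comparison made here. Col3a1, which was well above background on 1 of 2 arrays in 3 of the groups, was lower in replicate 1 by 3.54, 2.45, 0.71 and 1.84 in the same order. The replicate differences correlated over the 39 genes with 0.83 between WT and Sirt1 KO and 0.91 between DMSO and resveratrol (Pearson, over genes measured on the same arrays, as a description). The proteases and inhibitors were the exception as a class, with medians of 0.04, -0.35, 0.37 and 0.13.

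**Figure D4:**
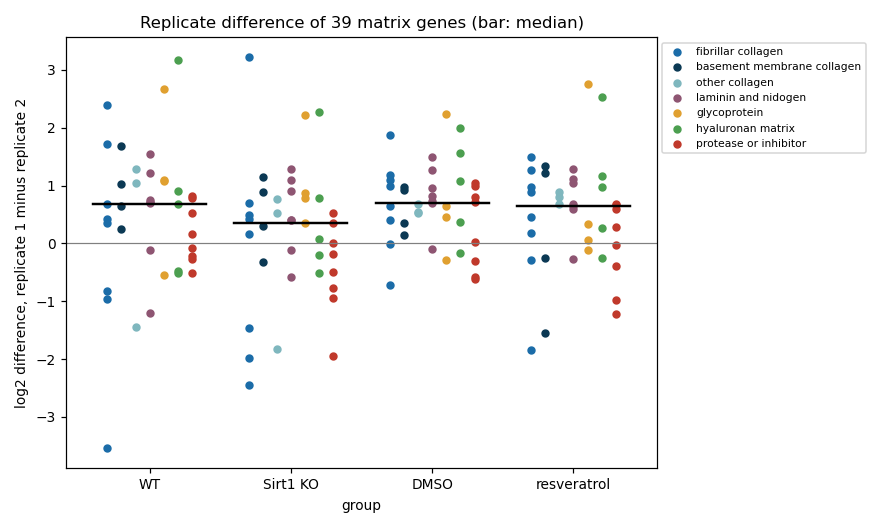
Replicate 1 minus replicate 2 on the log2 scale (vertical axis) for the 39 tested matrix genes in each group, coloured by class, with bars for the medians. The medians lie between 0.36 and 0.69, and the highest class median in DMSO, 1.08, is that of the hyaluronan matrix.

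**Figure D5:**
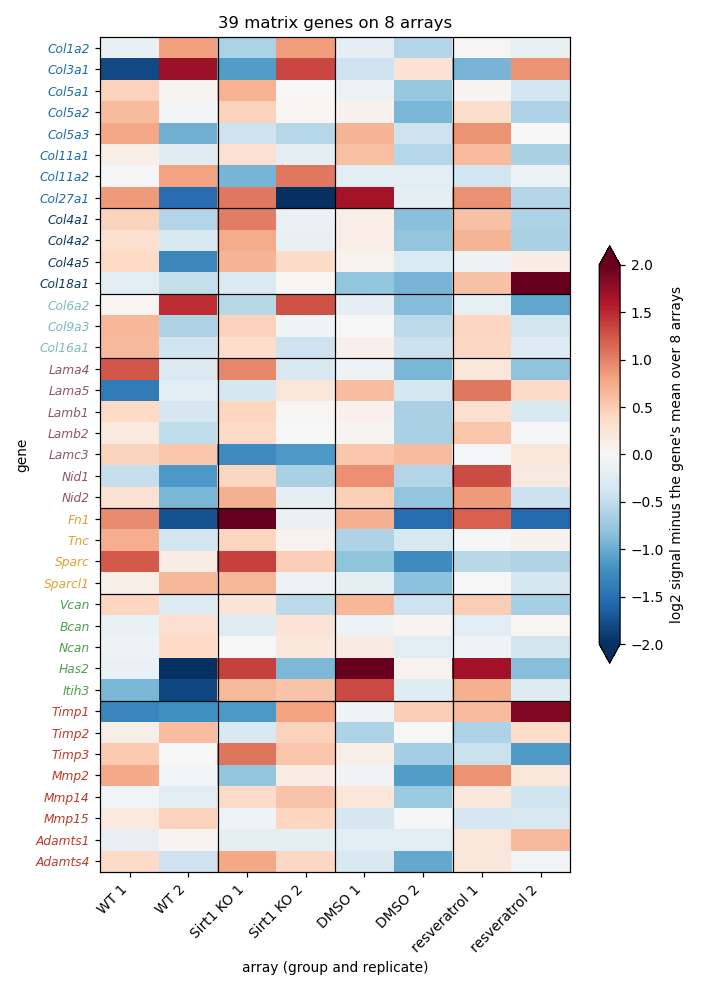
Log2 signal minus the mean of each gene over 8 arrays, for the 39 tested matrix genes (rows, by class) and the 8 arrays (columns), with the colour scale ending at -2 and 2. Replicate 1 columns are warmer than replicate 2 columns for most collagens and laminins, and Col18a1 and Timp1 are warmest in resveratrol 2.

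Of 17 matrix genes with several kept probes, the probes differed in sign in Sirt1 KO minus WT for Adamts1, Col11a2, Col16a1, Col5a1, Fn1 and Lama4, and in resveratrol minus DMSO for Col5a3 and Vcan. In WT minus DMSO they did so for Adamts1, Col11a2, Col16a1, Col4a2, Col5a3, Mmp14 and Vcan.

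Other genes of the pathway were taken from 5 lists of related genes that are not among the 44: collagen processing enzymes, other matrix components, matrix receptors, matrix proteases with their inhibitors, and TGF-beta signalling, with 116 genes tested in all. In resveratrol minus DMSO 0 of 116 passed with or without the replicate block, and 3 had an unadjusted p under 0.05, with 1.51% for all genes. Collagen processing enzymes were higher in both pairs for 15 of 19 genes and lower for 1, with a median of 0.25. Of 17 matrix receptors 12 were higher and 3 lower, with a median of 0.25. Of all genes 36.7% were higher and 32.2% lower. The other lists were more even. Other matrix genes had 18 higher and 12 lower of 40 (median 0.02), and proteases with inhibitors 9 and 8 of 25 (median -0.01). TGF-beta signalling had 9 and 5 of 17. In Sirt1 KO minus WT 0 of 116 passed with or without the block, and 5 had an unadjusted p under 0.05, with 1.19% for all genes. There the collagen processing list had a median of 0.33, with 10 of 19 higher and 3 lower in both pairs. Of all genes 22.2% were higher and 34.1% lower. The receptor list had a median of 0.09, with 7 higher and 5 lower of 17. Other matrix genes had 10 higher and 12 lower of 40, proteases with inhibitors 6 and 8 of 25, and TGF-beta signalling 5 and 8 of 17.

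In the test of the difference between the comparisons, 1 of 116 passed with the block, where 0.12% of all genes passed as higher and 0.173% as lower. This was Itga8, the integrin α8 chain, a receptor for fibronectin and tenascin C. It differed by -3.03 (SE 0.46, limma adjusted p = 0.0368 with the block), being 1.70 lower on the log2 scale in Sirt1 KO and 1.33 higher in resveratrol. In WT minus DMSO 1 of 116 passed without a block, where 0.045% of all genes passed as higher and 0.03% as lower. This was Itga9, the integrin α9 chain, which binds tenascin C. It was higher in WT by 3.82 (SE 0.24, adjusted p = 0.0149), by 3.92 and 3.73 in the 2 replicate numbers. TGF-beta signalling genes, which include the growth factors that induce collagen in many cells, had medians of -0.07 in Sirt1 KO minus WT and 0.09 in resveratrol minus DMSO.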

How the data were processed

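The 44 genes and the lists of pathway and marker genes were chosen with earlier results of these data known. The deposited scanner files hold 1 intensity per spot, corrected for background by Agilent Feature Extraction (10.7.3.1 per the file headers, 10.7 per the submitters' processing notes) and not normalized between arrays. The authors' deposited value table holds log2 values of unstated normalization, whose ordered values match within 2 separate sets of arrays, and served as an alternative. The genome build in the headers is older than the RefSeq table used, so probes carry no coordinates, and promoter windows are those of RefSeq (GRCm38.p6).

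Spots flagged as outliers were left out, spots of a probe were averaged, and log2 signals were centred on the 75th percentile of each array (45018 spots, 41174 probes). Probes that were well above background in both replicates of some group were kept. Symbols came from accessions (26918 probes matched, 14256 did not), and the brightest kept probe represented a gene. limma 3.58.1 in R 4.3.3 fitted 4 group means over all 8 arrays, with a variance trend on intensity. Tests were two-sided, with p-values adjusted (Benjamini-Hochberg, 13332 genes) and a threshold of 0.05. The procedure was tested on simulated data. Arrays of the same number deviated together within each arm over all genes (correlation 0.74 in the genotype arm, 0.83 in the treatment arm). The number is the slide in the treatment arm, per the file headers, and goes with sex, per the labels, and scan day in the genotype arm, so blocked values stand beside results. Between the arms only the number is shared.

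Genes were given with every array where both pairs had 1 sign and the difference was at least 0.5 (at most 12 per comparison), and for WT minus DMSO the 10 of largest size; others stand by class, or were named after their values were seen, as were the 6 genes given for the difference between the comparisons. Alternatives were quantile normalization, the authors' table, normexp (offset 50) on median signals, other filters, the mean of probes, replicate or slide as a block, no intensity trend, only the arrays compared, and leaving out each array. The mean signal planned for normexp was replaced by the median signal.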

Additional observations from a re-analysis of the deposited data

How the results depend on the processing

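With the replicate number as a block, 1 matrix gene passed in resveratrol minus DMSO (Col18a1, adjusted p = 0.0490), 0 in Sirt1 KO minus WT and 1 in the difference between them (Timp3, adjusted p = 0.0405); the block changed no other call of these 3. In WT minus DMSO the within-arm block called 13 of 39, 8 higher and 5 lower. Of all 13332 genes it called 830 as higher and 715 as lower. A replicate term shared by all groups, added after seeing the data, called 6 matrix genes. The arms share only a number, so neither count is one of calls. Slide as a block called 1, Sparc. The shares of all genes called with the shared term and with slide as a block are not given here. The other alternatives called 0 matrix genes in each comparison.

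The median over the matrix genes moved with slide as a block to 0.357 in Sirt1 KO minus WT and to 0.085 in the difference between the comparisons, and with local-background normexp to -0.222 in the latter. In WT minus DMSO it was 0.160 in the authors' table, 0.182 without the filter and 0.166 with the mean of probes. Leaving out 1 array gave -0.007 to 0.464 in Sirt1 KO minus WT, -0.100 to 0.593 in resveratrol minus DMSO, -0.450 to 0.145 in the difference and 0.018 to 0.512 in WT minus DMSO, because unlike replicate numbers are then compared.

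Named genes that turned with local-background normexp were, in Sirt1 KO minus WT, Col4a5 (-0.827), Nid1 (-0.180), Nid2 (-0.096), Fn1 (-0.304), Has2 (-0.222), Itih3 (-0.307) and Adamts4 (-0.008), in the difference Itih3 (-0.129; Has2 0.011), and in WT minus DMSO Col27a1 (0.908) and Itih3 (0.268). Background means of -269 and -100 were fitted on the WT arrays there. Slide as a block turned Col27a1 in WT minus DMSO (0.043). Leaving out 1 array turned Nid2 in Sirt1 KO minus WT (range -0.044 to 1.17), Col27a1 (-1.50 to 0.368), Has2 (-1.91 to 0.615) and Nid1 (-0.168 to 1.33) in resveratrol minus DMSO, and Col27a1 in WT minus DMSO (-2.26 to 0.127). Dim signal limits Has2, Itih3, Fn1, Col3a1, Col27a1, Col4a5, Col6a2 and Lamc3, which were not well above background on all 8 arrays.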
